A study of Homo sapiens with 4 samples.

Results

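The tallest binding sites of HNRNPC in MDA-MB-231 cells were examined against the rest of the HNRNPC peak list. HNRNPC (heterogeneous nuclear ribonucleoprotein C) was mapped by cross-linking and immunoprecipitation followed by sequencing (CLIP), in which ultraviolet light fixes a protein to the RNA it touches and the RNA pulled down with it is read as tags. A peak is a stretch of a transcript where tags pile up, and its height is the number of tags at the top. Peaks were selected on this height: positions of 40 tags or more, each counted once, outside chromosome M. They numbered 515 of 9104 positions (5.66%), and the other 8589 peaks, of 3 to 39 tags, served for comparison. Since height selected the sites, heights are described and not tested.

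MDA-MB-231 is an established human breast cancer line, for which the labels name no treatment other than irradiation with 400 mJ per cm2 at 254 nm. The series holds 2 HNRNPC samples and 2 samples of PABPC4, a cytoplasmic poly(A)-binding protein, and the tags of both samples of a protein were merged before peaks were called. The list therefore has no spread between replicates, no control immunoprecipitation was analysed here, and the total number of tags per sample is unknown. Intervals are 95% Wilson intervals for shares and Newcombe intervals for differences between shares, and cover counting error over peaks only. Peaks of one gene or one repeat family are not independent, so these intervals are likely too narrow. Peaks carry no expression level, so the cell line was not checked by marker genes.

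HNRNPC is an abundant nuclear protein that coats newly made transcripts and grips runs of uridine. Introns are its main territory, and Alu repeats inserted in reverse orientation supply many of its sites, because the A-rich tail of an Alu is read as a U run in the antisense direction. By covering such runs it is known to keep the splicing machinery from using cryptic exons, and it also affects the choice of poly(A) sites.

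The tallest peaks are best introduced by their sequences, since 60.2% of them ended on the same 6 letters. The following are the 3′ ends of intron peaks from 6 of the tallest sites with that ending, each with the last 30 nt of the peak and the 10 nt that follow. Sequences throughout run 5′ to 3′ as RNA from hg38, and capitals mark GUGUCA.
SLC35F3, 304 tags, chr1:233999647-233999686, plus strand: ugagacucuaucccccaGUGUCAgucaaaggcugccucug
FZR1, 197 tags, chr19:3511988-3512027, plus strand: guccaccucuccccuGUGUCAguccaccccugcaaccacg
SEPTIN9, 186 tags, chr17:77328238-77328277, plus strand: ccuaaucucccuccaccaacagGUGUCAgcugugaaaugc
GCNT2, 179 tags, chr6:10558042-10558081, plus strand: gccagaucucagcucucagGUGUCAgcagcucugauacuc
PRKCA, 169 tags, chr17:66789469-66789508, plus strand: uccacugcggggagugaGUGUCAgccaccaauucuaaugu
ZNF767P, 165 tags, chr7:149615713-149615752, minus strand: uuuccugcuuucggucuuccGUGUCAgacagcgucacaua
All 6 also share the G that follows the 6 letters.

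Another set shows the opposite end. The following are the 5′ ends of 4 intron peaks with a U run there, each with the 30 nt before the peak and its first 30 nt, and with runs of 5 or more U in capitals.
EZH2, 426 tags, chr7:148879662-148879721, minus strand: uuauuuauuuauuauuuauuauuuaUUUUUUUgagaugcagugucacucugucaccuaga
PRKCA, 200 tags, chr17:66374696-66374755, plus strand: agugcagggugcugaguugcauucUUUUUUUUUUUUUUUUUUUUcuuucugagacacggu
ACIN1, 187 tags, chr14:23070892-23070951, minus strand: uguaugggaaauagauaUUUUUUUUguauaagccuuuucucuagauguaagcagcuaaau
PANK2, 116 tags, chr20:3902560-3902619, plus strand: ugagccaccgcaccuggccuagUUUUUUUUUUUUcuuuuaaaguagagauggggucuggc
In PRKCA the run reached 20 U without a break.

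The tallest site of the list, in the nuclear long non-coding RNA MALAT1, belonged to neither set. Below are the 200 nt around its centre, an exonic stretch in which capitals mark runs of 4 or more U.
MALAT1, 629 tags, chr11:65505133-65505332, plus strand: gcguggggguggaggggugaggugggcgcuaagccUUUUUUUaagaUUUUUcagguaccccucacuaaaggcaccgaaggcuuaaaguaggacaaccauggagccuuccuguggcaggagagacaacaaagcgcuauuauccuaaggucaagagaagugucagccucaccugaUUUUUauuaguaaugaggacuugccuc
Its 3 U runs and its GUGUCA (lower case here) lay within the body of the peak rather than at an end.

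Heights ran from 40 to 629 tags with a median of 56 (quartiles 46 and 78). Only a few sites stood far above the rest: 64 peaks reached 100 tags, 21 reached 150 tags and 5 reached 200 tags. Together the 515 peaks held 24.2% of the summed height of the list, with 35571 tags at peak tops. The gene order began with MALAT1 (629 tags) and EZH2 (426 tags), the catalytic subunit of Polycomb repressive complex 2. SLC35F3, a solute carrier family member, followed at 304 tags, PALM2AKAP2 at 244 tags and PRKCA, protein kinase C alpha, at 200 tags. Next came FZR1 (197 tags), an activator of the anaphase-promoting complex, TNFRSF10B (196 tags), a TRAIL death receptor, DPH7 (189 tags), ACIN1 (187 tags) and SEPTIN9 (186 tags), a septin cytoskeletal protein. Of these 10 genes, 8 had their tallest site in an intron, with MALAT1 in an exon and TNFRSF10B in the 3′ UTR as the exceptions. The next 15 genes, from WDR4 (184 tags) to AGAP1 (135 tags), had all but 1 of their tallest sites in introns, the exception being HYOU1. They included GCNT2, PTTG1IP, EPHB2, a receptor tyrosine kinase (150 tags), and EP400, a chromatin remodeller (145 tags). Sites listed under several gene IDs made up 4.85% of the tallest and 5.98% of the remaining peaks. That of WDR4 was listed under 7, U2AF1 and CBS among them, so its gene is uncertain.

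**Figure D1:**
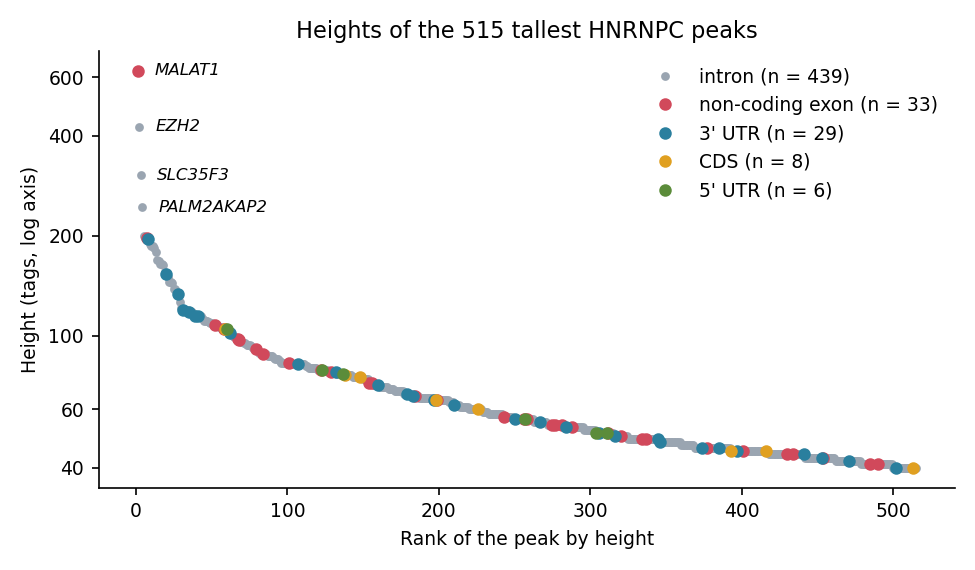
Each point is 1 of the 515 peaks, placed by its rank (x axis) and its height in tags (y axis, log scale) and coloured by the feature under its centre. The 4 highest points, MALAT1 at 629, EZH2 at 426, SLC35F3 at 304 and PALM2AKAP2 at 244 tags, stand apart from a gradual slope, and exonic peaks are scattered along the whole of it.

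The limit did not fall at a gap. Just inside it were 16 peaks of 40 tags and 21 of 41 tags, and just outside it 42 peaks of 39 tags and 24 of 38 tags. GUGUCA was near the 3′ end of 56.3% and 52.4% of the first pair and of 54.8% and 58.3% of the second. SEPTIN9 had peaks on either side, at 40 and 39 tags, as did EXT1 at 41 and 38 tags.

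The first question was where in transcripts the tallest peaks lay. Introns held 439 of the 515 (85.2%, 81.9 to 88.0%), against 85.5% of the remaining peaks, a difference of -0.25 points (-3.65 to 2.65). The 3′ UTR held 29 (5.63% against 5.71%), coding sequence 8 (1.55% against 1.71%) and the 5′ UTR 6 (1.17% against 1.46%). Exons of non-coding transcripts held 33 (6.41% against 5.33%, a difference of 1.08 points, -0.80 to 3.57). None of the 515 lay outside genes or antisense to one, which allows a share of up to 0.740% for each. Of the remaining peaks, 24 lay outside genes (0.28%) and 2 antisense to one (0.02%). Entries of the list carry gene IDs, so such places were nearly excluded beforehand and the absence says nothing about tall peaks. The intervals of these differences all include 0. For introns this depended on the comparison. The difference was -5.25 points (-8.80 to -2.12) against the other peaks of the same genes, 4.56 points (0.42 to 8.05) over the tallest peak of each gene, and -7.92 points (-14.2 to -2.56) among peaks without GUGUCA near the 3′ end. Against the other peaks of the same genes it was 2.04 points (0.12 to 4.50) for the 3′ UTR and 2.13 points (0.06 to 4.72) for non-coding exons. Among peaks in introns of the canonical transcript, 39.6% of 424 were in the first intron, against 38.98%, and 4.48% were within 300 nt of a splice site, against 5.37%. The host introns were long, with a median of 28856 nt against 27369 nt.

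Among exonic sites the lncRNA exons stood out, mostly through 2 genes. They held 20 of the tallest peaks (3.88% against 1.37%, a difference of 2.51 points, 1.13 to 4.56), and 14 of these 20 were in MALAT1 and NEAT1, the scaffold of nuclear paraspeckles. With both genes left out, the share of tall peaks in all non-coding exons, a wider class, was 3.79% against 5.26%. No such difference was calculated without them for the lncRNA exons alone. Another 3 were in SNHG3, a host gene of small nucleolar RNA, and the TERC peak, over the RNA component of telomerase, was 83 tags high and 220 nt wide. The RMRP peak, over the RNA of RNase MRP, was 54 tags high. By contrast, non-coding exons of protein-coding genes (retained introns and the like) held 11 (2.14% against 3.67%, a difference of -1.53 points, -2.56 to 0.16). CAPN15 (98 tags) and DAZAP1 (91 tags), which encodes an RNA-binding protein, were the tallest of them.

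The tallest 3′ UTR site was in TNFRSF10B (196 tags, chr8:23020732-23020999, minus strand). HYOU1, an endoplasmic reticulum chaperone, came next at 154 tags, EHMT1, a histone H3 lysine 9 methyltransferase, at 134 tags, and AGO2, the slicing Argonaute protein, at 120 tags. ACTB and ACTG1, the cytoplasmic actins, had 3′ UTR sites of 56 and 62 tags. In coding sequence the tallest was in SPRY4 (105 tags, chr5:142319676-142319832, minus strand), an inhibitor of receptor tyrosine kinase signalling, followed by the receptor EPHA2 (76 tags) and the glutamine transporter SLC1A5 (75 tags). In the 5′ UTR the tallest was in ZNF875 (105 tags, chr19:37325151-37325343, plus strand). The 6 letters were at the 3′ end of 14 of 29 peaks in the 3′ UTR (48.3%), 11 of 33 in non-coding exons (33.3%), 2 of 6 in the 5′ UTR and 1 of 8 in coding sequence (12.5%). In coding sequence the remaining peaks had it in 55.1% (81 of 147), so the order was the reverse of that in introns, where it was 64.2% against 36.3%. Only 8 tall peaks lay in coding sequence, and the difference of -42.6 points had an interval of -55.5 to -7.08.

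Widths followed. The tallest peaks were wider than the others, with a median of 132 nt (quartiles 117 and 168) against 99 nt (82 and 122). Width and height come from the same tags, and the 2 are described together. Peaks over 200 nt made up 17.7% of the tallest and 5.37% of the remaining peaks. The extra width was present with and without GUGUCA near the 3′ end. The 310 tall peaks with GUGUCA had a median of 126 nt, against 97 nt for the remaining peaks with it. The 205 tall peaks without it had a median of 161 nt, against 102 nt. The very wide sites were mostly of the latter kind: 37.1% of tall peaks without GUGUCA and 4.84% of those with it exceeded 200 nt.

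All 37 of the tallest peaks wider than 300 nt lacked GUGUCA near the 3′ end, although 15 of them held it elsewhere in the peak. All but 5 of the 116 remaining peaks of that width also lacked it near the 3′ end. The widest was a NIBAN2 intron peak of 505 nt (65 tags). CCDC9B (499 nt, 3′ UTR), SNHG3 (482 nt), ARAP1 (477 nt, intron, 163 tags) and MALAT1 (463 nt) followed. MALAT1 and NEAT1 gave 12 of the 37. The peak caller ends a peak at the next dip in coverage, so width also depends on how tags of neighbouring sites merge.

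**Figure D2:**
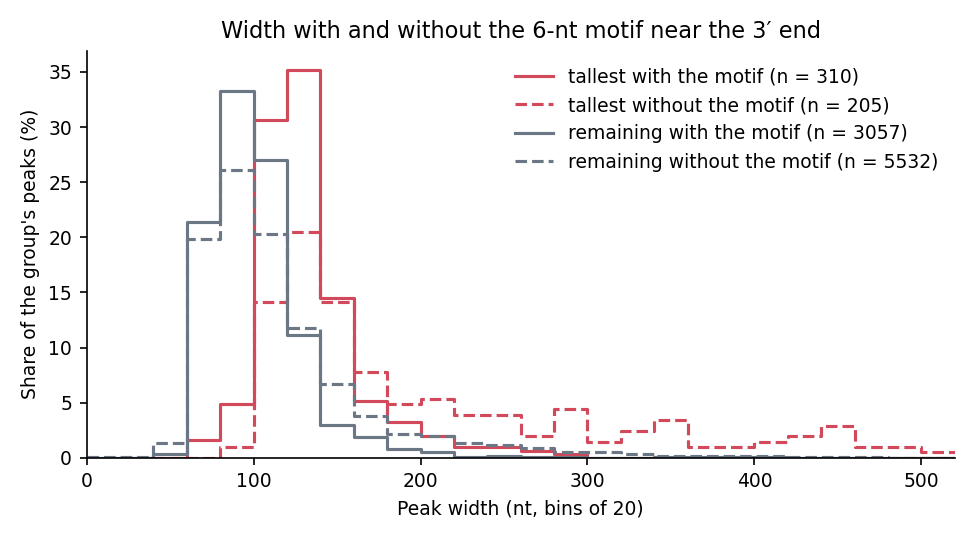
The share of each group's peaks (y axis, percent) is drawn against peak width in bins of 20 nt (x axis, to 520 nt), for the tallest (red) and the remaining peaks (grey) with (solid) and without (dashed) the 6-nt motif near the 3′ end. Both red lines lie to the right of the grey ones, and the dashed red line has the heaviest tail beyond 200 nt, with 37.1% of its 205 peaks against 7.77% for the dashed grey line.

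The 3′ end motif was the plainest sequence difference. GUGUCA began within the last 20 nt of the peak or the 5 nt after it in 310 of the 515 tallest peaks (60.2%, 55.9 to 64.3%), against 35.6% of the remaining peaks, a difference of 24.6 points (20.2 to 28.9). Among all 6-mers in that window it had the largest difference between tall and remaining peaks, followed by its shifted form UGUCAG (54.2% against 30.5%). In tall peaks it began a median of 11 nt before the end (quartiles 13 and 8), and in the remaining peaks 7 nt before it (quartiles 9 and 3). The next base was G in 88.1% and 84.8%. The base after that was most often C in the tallest peaks (39.7%) and U in the others (35.0%). It was followed by C in 51.0% of tall and 36.2% of remaining peaks with GUGUCA. The longer word GUGUCAG was near the 3′ end of 53.4% of all tall peaks and 30.2% of the remaining ones.

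The share did not simply grow with height. It was 10.5% in peaks of 3 and 4 tags, 29.6% at 5 to 9, 36.3% at 10 to 19, 47.0% at 20 to 29 and 56.1% at 30 to 39 tags. It reached 63.1% at 40 to 59 tags and was 59.1% at 60 to 99 and 50% (38.1 to 61.9%) at 100 tags or more, where intervals overlap. Against peaks of 20 to 39 tags only, the tallest had it more often by 10.6 points (5.51 to 15.5). Within genes that held a tall peak, the remaining peaks had it in 26.5%, and the difference was 33.7 points (28.9 to 38.3). Of the 205 tallest peaks without it at the end, 88 (42.9%) held it elsewhere in the peak, against 6.83% of the corresponding remaining peaks, although wider peaks hold any word more often. Which step of binding or library preparation gives this word was not tested.

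**Figure D3:**
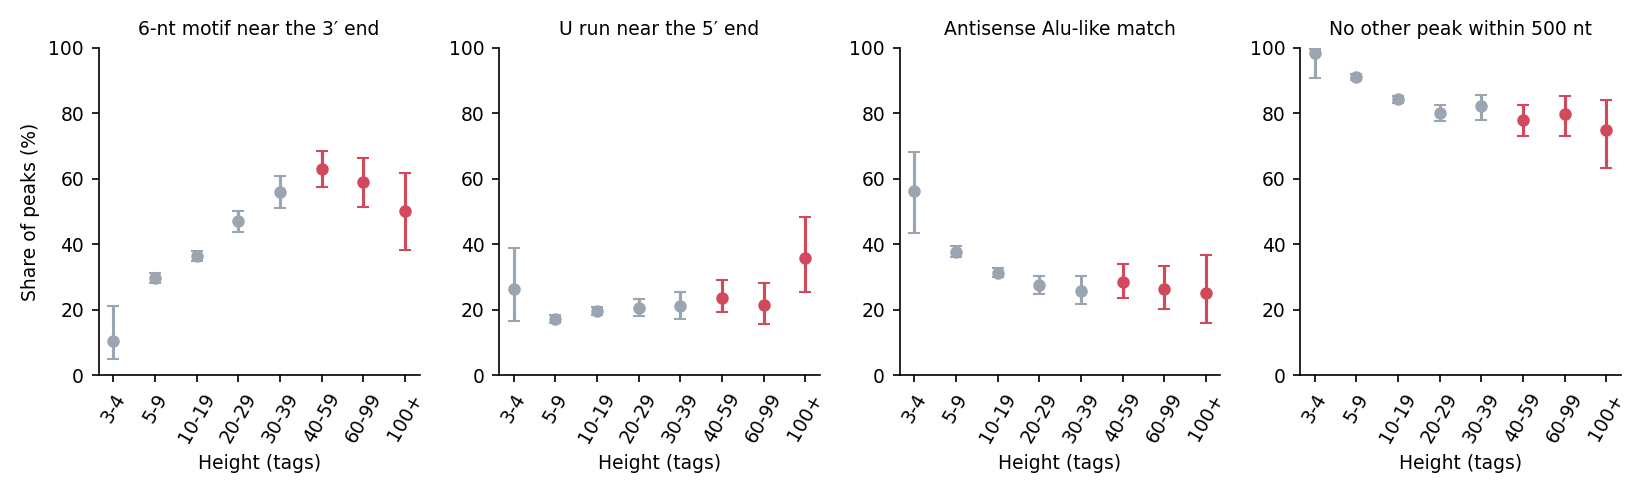
Each panel gives the share of peaks (y axis, percent, with 95% Wilson intervals) in 8 height bins (x axis, tags), red for the bins of 40 tags or more. The 6-nt motif climbs from 10.5% to 63.1% and then levels, the U run is highest (35.9%) at 100 tags or more, and the antisense Alu-like share and the share of lone peaks are lower in tall bins than in the lowest.

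U runs, the known target of HNRNPC, gave a mixed picture at tall peaks. UUUUU began within 20 nt of the 5′ end in 126 of the 515 (24.5%, 20.95 to 28.4%), against 18.9%, a difference of 5.58 points (1.97 to 9.56). At 100 tags or more it was 35.9% (25.3 to 48.2%). Against peaks of 20 to 39 tags the difference was 3.70 points (-0.49 to 8.13). Long runs went the other way: 8 or more U in a row, from 50 nt before to 10 nt into the peak, were found at 8.35% of tall peaks (6.26 to 11.1%) and 11.2% of the others (10.5 to 11.9%). By class they were at 6.77% of tall peaks with GUGUCA against 4.32%, and at 10.7% of those without it against 14.97%. The position of UUUUU differed by class. In tall peaks without GUGUCA it began most often 5 nt before the peak (8.78% of peaks at that single position), and its density was 3.27% per position within 20 nt of the 5′ end and 1.41% per position from 50 to 21 nt before it. In the 310 tall peaks with GUGUCA the corresponding densities were 1.53% and 1.51%, so the run was not gathered there. In the remaining peaks density was 2.34% in the first of these windows and 2.78% in the second. Both motifs were present in 59 of the tallest peaks (11.5% against 4.12%), and neither in 138 (26.8% against 49.6%). Base composition differed little, with a median of 25.7% U in the tallest and 25.5% in the remaining peaks.

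**Figure D4:**
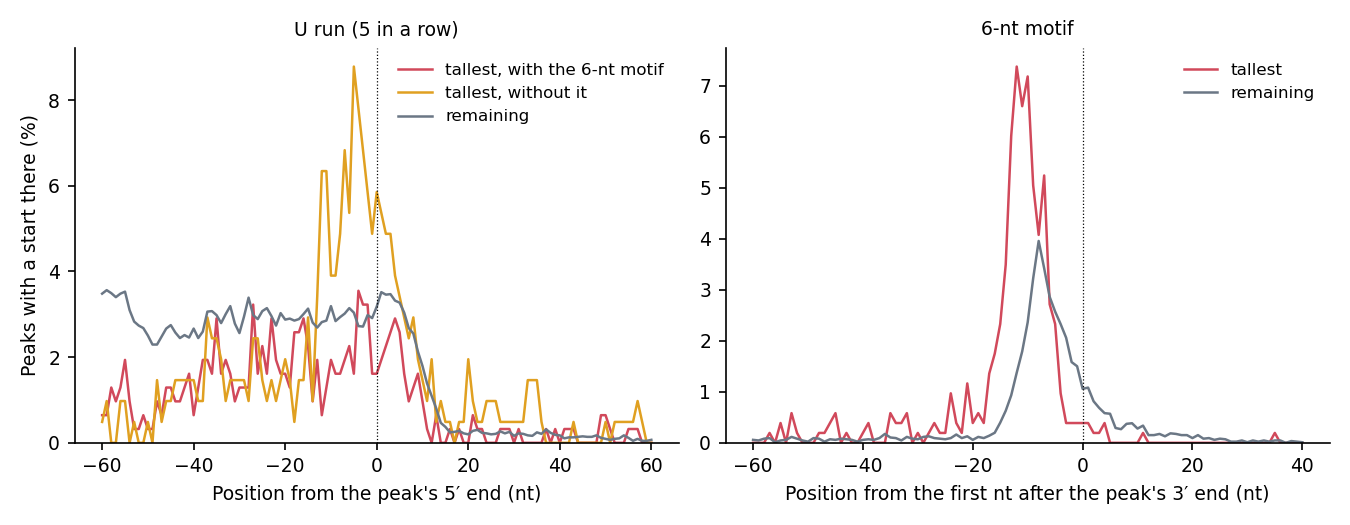
The left panel gives the percent of peaks in which a run of 5 U begins at each position from the peak's 5′ end (x axis, nt), and the right panel the same for the 6-nt motif from the first base after the 3′ end. The U run of tall peaks without the motif (yellow) is gathered just before position 0, with a top of 8.78% at position -5, and the 6-nt motif of tall peaks is gathered at position -12 (7.38%) against -8 (3.96%) in the remaining peaks (grey).

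Repeats were less common at tall peaks. A match to 7SL RNA, the ancestor of Alu elements, within 100 nt of the peak in antisense orientation was found for 141 of the 515 (27.4%, 23.7 to 31.4%), against 33.3%, a difference of -5.87 points (-9.68 to -1.75). The best match of the window was antisense and reached into the peak itself in 12.2% against 20.8%, a count that misses weaker matches inside the peak. When the peak alone was searched, a match in either orientation was found for 16.9% against 21.4% (difference -4.49 points, -7.61 to -0.91). Sense matches were few: NEDD4L (101 tags), HM13 (69 tags), MPRIP (67 tags), PRKAG2 (59 tags) and SLC35F3 (53 tags). Peaks whose 16-mers occurred a median of 10 times or more in the genome made up 28.3% against 37.6% (difference -9.25 points, -13.1 to -5.08). Against the other peaks of the same genes the Alu-like and recurrence differences were 0.89 points (-3.36 to 5.39) and 1.42 points (-2.82 to 5.91), so neither was seen within genes. Nor were they seen against remaining peaks of 20 to 39 tags, with differences of 0.79 points (-3.68 to 5.47) and -0.73 points (-5.23 to 3.96). Over the tallest peak of each gene the Alu-like difference was -4.56 points (-9.26 to 0.51). Of the 146 recurrent tall peaks, 120 carried an antisense Alu-like match.

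The U run and the Alu went together. Of the 141 tallest peaks with an antisense Alu-like match, 89 (63.1%) had UUUUU at the 5′ end, against 39.8% of the 2856 remaining peaks with such a match (difference 23.3 points, 14.9 to 31.04). Outside these matches it was 9.89% against 8.46% (difference 1.43 points, -1.30 to 4.95). GUGUCA was also more frequent at tall peaks with an antisense match (53.9% against 15.7%) than at other peaks with one, by a margin of 38.2 points. Outside the matches the margin was 17.1 points. The second tallest site, in the first intron of EZH2, was of this kind, with an antisense match of 83.1% identity and a median 16-mer count of 2276. Its U run lay at the 5′ edge, as printed with the 5′ ends.

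Whether tall peaks stood alone was asked on each strand. No other HNRNPC peak lay within 500 nt of 403 of the 515 (78.3%, 74.5 to 81.6%), against 86.5%, a difference of -8.22 points (-12.0 to -4.79). A neighbour within 100 nt was found for 10.9% against 4.77%, and within 5000 nt for 55.1% against 37.9%. The order turned within genes: among genes with a tall peak, 73.7% of the remaining peaks were alone, fewer than of the tall ones by 4.60 points (0.37 to 8.51). Against peaks of 20 to 39 tags the difference was -2.51 points (-6.79 to 1.51). Tall peaks with GUGUCA were alone in 85.5% and those without in 67.3%. The remaining peaks were split the same way, at 95.6% with it and 81.4% without. The most isolated were intron peaks of PPP4R1 (45 tags), TMA16 (48 tags) and DNAJC3 (44 tags), the 5′ UTR peak of HDHD2 (79 tags) and a peak of NRSN2-AS1 (51 tags), with 1.04 to 2.99 Mb to the next peak on the strand.

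The other 112 tall peaks were in runs of peaks chained within 500 nt, 60 in pairs and 52 in runs of 3 or more (10.1% against 4.54%). In 91 cases the tall peak was the highest of its run. Selection by height fixes this count, since the top of any run with a tall peak is itself tall. Of the 112, 75 had only lower peaks beside them in the run, and 37 shared it with another tall peak. The 132 lower neighbours in all runs of the 112 had a median height of 18 tags. Only 15 runs held 2 or more tall peaks. MALAT1 had a run of 4 over 1727 nt, with 105, 64, 629 and 197 tags, and another of 3 with 78, 108 and 56 tags. NEAT1 had 97, 44 and 43 tags in one run and 88 and 72 tags in another. EXT1 had 49, 67 and 111 tags within 1225 nt, and EZH2 had 52 tags next to its 426.

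A run in the gene of TFDP1, the dimer partner of E2F transcription factors, was of a different kind. Its 4 tall peaks, of 69, 79, 49 and 64 tags, lay within 1500 nt of 1 intron, all with GUGUCA at the 3′ end. Their 3′ ends are shown because they turned out to be copies of each other, with capitals for GUGUCA.
TFDP1 peak 1, 69 tags, chr13:113592998-113593037, plus strand: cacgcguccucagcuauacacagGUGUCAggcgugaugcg
TFDP1 peak 2, 79 tags, chr13:113593237-113593276, plus strand: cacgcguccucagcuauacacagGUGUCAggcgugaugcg
TFDP1 peak 3, 49 tags, chr13:113593790-113593829, plus strand: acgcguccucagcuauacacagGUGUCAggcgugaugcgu
TFDP1 peak 4, 64 tags, chr13:113594342-113594381, plus strand: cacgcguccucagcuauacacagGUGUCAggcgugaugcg
A 38-nt stretch of the first end occurred 4 times in the reference chromosomes, on chromosome 13 at spacings of 239, 552 and 553 nt, and each copy lay at the end of 1 of the 4 peaks. These sites thus share 1 sequence and are not independent of each other. How tags were placed among the copies is not known, so tags may be assigned to the wrong copy and the 4 heights may not be separable. The remaining TFDP1 peak, of 16 tags, had no GUGUCA near its 3′ end. A stretch of 30 nt or more was shared with any other peak of the list by 113 tall peaks (21.9%) and by 26.1% of the remaining ones. Over all tall peaks, 58 shared such a stretch with another tall peak, in 15 groups. Antisense Alu-like peaks were part of all but 3 of these groups, the 3 being TFDP1, the paralogues ATAD3A and ATAD3B (82 and 144 tags), and a pair from CCNY and RAPGEF6.

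**Figure D5:**
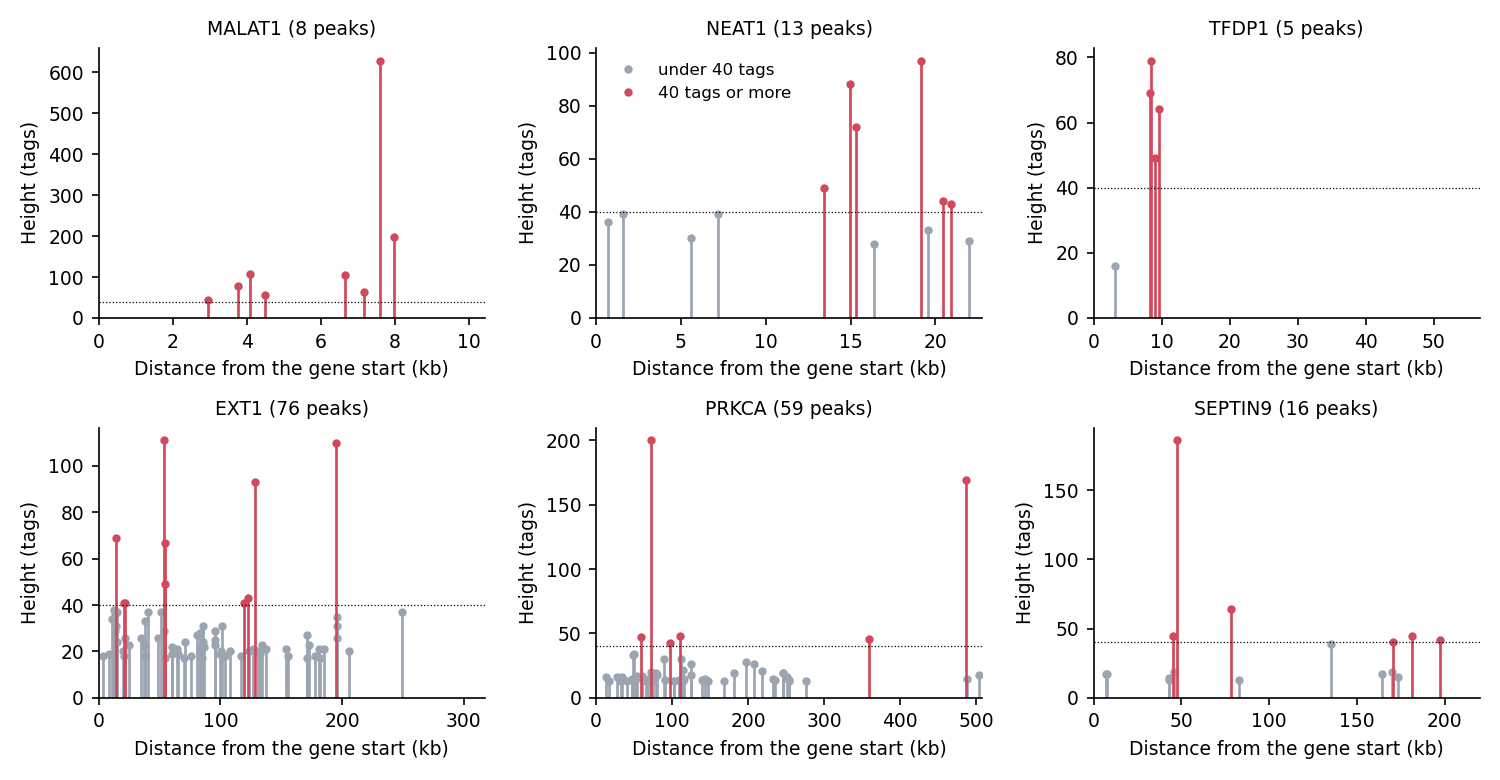
Each stem is an HNRNPC peak, placed by the distance of its centre from the annotated gene start (x axis, kb) and its height in tags (y axis, starting at 0, each panel with its own scale), red for 40 tags or more and with the limit dotted. All 8 MALAT1 peaks are red and the tallest is flanked closely, the 4 red TFDP1 stems share 1 place, and EXT1 and PRKCA have scattered red stems among many low ones.

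The tall peaks fell in 377 genes, 9.50% of the 3968 genes with an HNRNPC peak. Of these, 298 held 1 (79.0%, 74.7 to 82.9%), 51 held 2 and 28 held 3 or more, the last with 115 peaks together. Genes with more peaks gave a larger part of them as tall ones: 3.11% in genes with a single peak (70 of 2254), 4.82% with 2 to 4 peaks, 7.76% with 5 to 9, 9.02% with 10 to 19 and 8.02% with 20 or more. Yet a high number of sites was not needed. In 7 genes with at least 2 peaks every one was tall, namely MALAT1 (8 of 8), EZH2, CPSF4, a subunit of the cleavage and polyadenylation complex, HSP90AB1, ING5, RCC2 and ZDHHC7 (2 of 2 each). Such genes were rare, as 1348 genes held 2 to 4 peaks and 263 held 5 to 9.

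EXT1, a glycosyltransferase of heparan sulphate synthesis, held the most, 10 of its 76 peaks. All 10 were in introns, with 41 to 111 tags, and 8 had UUUUU at the 5′ end, 6 an antisense Alu-like match and 1 GUGUCA at the 3′ end. SEPTIN9 (6 of 16) was the opposite, with GUGUCA at 5 of 6, no UUUUU and no Alu-like match. PRKCA (6 of 59) was mixed, with GUGUCA at 3 and UUUUU at 3. Its 2 leading peaks, of 200 and 169 tags, lay far apart in the gene and were of either kind.

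Genes with 4 tall peaks fell into the same kinds. PVT1, a lncRNA next to MYC, had GUGUCA at all 4, and EGFR, the epidermal growth factor receptor, and CCNY, cyclin Y, had it at 3 of 4. AGO2 and ANKRD11, a chromatin regulator, had neither GUGUCA at the 3′ end, UUUUU nor an antisense match at any of 4. In AGO2, 3 of the 4 lay in 3′ UTR annotation, 1 of these only through an alternative transcript. SPRY4 had 4 of its 6 peaks over the limit, TRIO 4 of 38, NIBAN2 4 of 13 and HPCAL1 4 of 16. The 3 tall peaks of SLC20A1, a phosphate transporter, and the 3 of SNHG3 all had both an antisense Alu-like match and UUUUU. Others with 3 were CMIP, SKI, BCAR3, HMGA2, TEAD1, ACTN4, TSPAN14, ACTN1, ZMIZ1 and NEK6, with 9.68% to 37.5% of their peaks over the limit. ACTN1 and ACTN4 encode actin cross-linkers, TEAD1 the DNA-binding partner of YAP, and SKI an inhibitor of TGF-beta signalling. TEAD1 had the most even heights (85, 80 and 85 tags).

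Sites with none of the sequence marks made up a further class. Of the 515, 124 had neither GUGUCA at the 3′ end, UUUUU at the 5′ end nor an antisense match (24.1% against 32.9% of the remaining peaks). They had a median width of 177 nt, 92 were in introns, and 65 (52.4%) held GUGUCA elsewhere in the peak. After MALAT1 the tallest were in introns of PTTG1IP (168 tags), CMIP (164 tags), ARAP1 (163 tags), ATAD3B (144 tags) and HMGA1 (138 tags), the last an architectural chromatin protein. Of the 8 tall peaks in coding sequence, 7 were of this class.

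Transcript abundance could not be measured from these peaks. The authors' list gives, for each peak, the height expected from the tags of its gene. It was higher at tall peaks (median 0.57 tags against 0.21) and at tall peaks without GUGUCA than with it (0.92 against 0.44). In MALAT1 it was 15.79 tags and in NEAT1 6.69 tags. Heights and expected heights rest on the same tags, and a gene with more RNA or more binding cannot be told apart by it. Peaks with an authors' p of at most 0.001 made up 99.6% of the tallest and 69.7% of the remaining ones. That p rests on peak height, so selection by height favours this contrast.

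Gene groups were then counted against the 5.66% of all peaks that were tall. The nuclear RNAs MALAT1 and NEAT1 gave 14 of 21 peaks (66.7%), none with GUGUCA at the 3′ end. lncRNA genes as a whole gave 36 of 475 (7.58%, 5.52 to 10.3%), but without MALAT1 and NEAT1 22 of 454 (4.85%, 3.22 to 7.23%), with ZNF767P (165 tags), ZFAS1 (115 tags) and DANT2 (96 tags) as further examples. Genes of chromosome 19 gave 50 of 564 (8.87%, 6.79 to 11.5%), among them FZR1, REXO1 (145 tags) and MKNK2 (115 tags). Chromosome 15 by contrast held 3 of the tallest peaks (0.58% against 2.74% of the remaining ones). Kinases of the MAPK group gave 5 of 36 (13.9%, 6.08 to 28.7%), in MKNK2, MAP2K3 and MAP2K2. Histone methyltransferases gave 5 of 53, in EHMT1, NSD2 and NSD1, all with GUGUCA, and endoplasmic reticulum chaperones 2 of 13, HYOU1 and PDIA4.

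Each of the other groups gave at most 7 tall peaks. ZNF genes gave 7 of 177 (3.95%, 1.93 to 7.94%), DDX and DHX helicases 2 of 29 and ubiquitin-specific proteases 1 of 26. Ribosomal protein genes gave 0 of 33 (upper bound 10.4%) and genes of HNRNP and SRSF splicing factors 0 of 44 (upper bound 8.03%). Host genes of snoRNA gave 3 of 27 (11.1%, 3.85 to 28.1%), all in SNHG3. Structured small RNAs gave 1 of 12 (8.33%), RMRP, and TNF receptor genes 1 of 4 (25%), TNFRSF10B, both from very few peaks. Apart from MALAT1 with NEAT1, chromosome 19 and the MAPK group, the intervals of all these groups include 5.66%. The groups were listed with earlier results in view, so their counts are descriptions.

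Last, the tall HNRNPC peaks were set beside the 63507 PABPC4 peaks. A PABPC4 peak on the same strand overlapped 5 of 515 (0.97%, 0.42 to 2.25%), against 0.91% of the remaining peaks, a difference of 0.06 points (-0.54 to 1.36). The 5 were in CD59, HSP90AB1, MALAT1, GALNT9 and RMRP, and none had GUGUCA at the 3′ end. The PABPC4 peaks there were 197 tags high in CD59, 331 tags in HSP90AB1, 294 tags in MALAT1 and 35 tags in RMRP, on a scale of another library. Within 100 nt the shares were 3.11% and 2.18%. At the level of genes, however, 511 of the 515 tall peaks (99.2%) lay in a gene with a PABPC4 peak, against 97.8%, the exceptions being in TERC, OGG1, ZFYVE21 and an unnamed gene. Tall HNRNPC sites and PABPC4 sites thus occurred in the same genes but seldom at the same place, as was also so for the remaining HNRNPC peaks.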

How the data were processed

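Deposited peak lists of HNRNPC and PABPC4 were used. Per the methods, the authors processed reads with UMI-tools and cutadapt, mapped them to hg38 with BWA 0.7.17 and called peaks with CTK by valley seeking on the pooled unique tags of both samples. The deposited signal is peak height in tags, not scaled to depth. Tags were counted once per unique read, so abundant transcripts can yield tall peaks. The 10388 HNRNPC entries gave 9107 positions, 3 of them on chromosome M.

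Each peak's centre was placed on GENCODE 44 on its strand, in the order 3′ UTR, coding, 5′ UTR, non-coding exon, intron. Gene IDs were named through RefSeq (4090 of 4098 matched). Alu-like matches came from BLAST 2.17.0 of 7SL RNA (299 nt, E at most 1e-05, word size 7) against the peak and 100 nt on each side. An overlap needed 1 nt or more, strand matched. Shares were computed in Python 3.11.15 with SciPy 1.17.1, and the functions were tested on simulated data. No test was run, since each protein has 1 pooled list.

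Genes named were those of the 25 tallest peaks, those with 3 or more tall peaks, the tallest per feature, the 5 most isolated, up to 4 examples per gene group and others where a count of few needed names, the last chosen after their values were seen. A few items that met these rules are not reported here. The peaks, gene groups and motifs were chosen with earlier results of these data known.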

Additional observations from a re-analysis of the deposited data

Results flagged for a closer look

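Signal appeared outside the peaks examined, on chromosome M, which the selection left out. All 3 HNRNPC peaks there exceeded 40 tags. They were 299 tags (781 nt wide) and 98 tags high in RNR2, and 64 tags high in RNR1, the mitochondrial ribosomal RNAs. The expected height in the authors' list was 50.08 tags for RNR2 and 18.37 tags for RNR1, against a median of 0.57 tags at the tallest peaks elsewhere. With no control sample, the source of these tags was not tested.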

How the results depend on the processing

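No paired analysis was possible because peaks were called on the merged tags of both samples, which also meant that no single replicate could be left out. Of 134 recalculations of the differences between tall and remaining peaks, 98 stayed within the main interval (1.5-fold for counts), 32 moved beyond it and 4 reversed a difference whose main interval excluded 0. In all, 25 had another sign than the main value, the other 21 being differences near 0 (introns, 3′ UTR, non-coding exons and PABPC4 overlap). The cause was not tested. Against remaining peaks in genes with a tall peak, differences were -5.25 points for introns, 16 nt for width, 0.89 points for Alu-like matches, 1.42 for recurrence, 4.60 for lone peaks and 33.7 for GUGUCA. With peaks bearing GUGUCA at the 3′ end left out, they were -7.92 for introns, 4.78 for non-coding exons, 59 nt for width, -11.7 for Alu-like matches, -17.0 for recurrence, -14.1 for lone peaks, 9.76 for UUUUU and 1.43 for PABPC4 overlap. That setting removed 310 of the tall peaks and left 149 genes in place of 377. With the tallest peak of each gene only, they were 4.56 for introns, -1.78 for non-coding exons, -13.0 for lone peaks and 19.9 for GUGUCA.

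Of 2 settings chosen after seeing the data, remaining peaks of 20 to 39 tags gave 13 nt for width, 0.79 for Alu-like matches, -0.73 for recurrence, -2.51 for lone peaks, 10.6 for GUGUCA and -0.63 for PABPC4 overlap, and leaving out MALAT1 and NEAT1 gave -1.46 for non-coding exons. A limit of 60 tags gave 39 nt for width, 20.1 for GUGUCA, 186 genes and 85.5% of genes with 1 tall peak, and a limit of 30 tags gave 591 genes. The authors' p of at most 0.001 gave 29 nt for width and 18.7 for GUGUCA. Counting every listed entry gave 73.7% of genes with 1 tall peak. Lone peaks within 5000 nt gave -17.2, and GUGUCA anywhere in the peak 45.7. In every recalculation the sign was the same for width (13 to 59 nt), for GUGUCA (10.6 to 45.7 points) and for the U run (3.70 to 9.76 points). Classes of few peaks, such as the 8 in coding sequence, limit what can be read from them.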
